A study of Mus musculus with 9 samples.

Results

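Imprinted genes were described by their chromatin accessibility in differentiating female mouse embryonic stem cells. The list held 35 named genes of the classical imprinted domains, from H19 and Igf2 to Zdbf2, out of 34568 protein-coding and long non-coding RNA genes of GENCODE release M21 (mm10). For each gene the window that holds its 5′ end was called the start window, and windows inside the gene that hold no 5′ end of any gene made up its body. All 35 genes had a start window, in 33 distinct windows, because Peg10 and Sgce share a bidirectional start (chromosome 6, 4745180 to 4747722) and Peg3 and Usp29 share another (chromosome 7, 6729530 to 6731596). All 35 also had body windows, 604 distinct ones (overlapping genes share some) of 829493 windows in all.

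Accessibility was measured by NOMe-seq, in which a GpC methyltransferase marks cytosines that nucleosomes leave uncovered, so a higher percent GpC methylation means more open chromatin. The mESC lines came from FVB dams and CAST sires. The 9 libraries were undifferentiated cells at day 0, cells with the non-silencing hairpin (Nons) at days 4, 5, 6 and 7 of differentiation, and cells with a hairpin against Smarcc1 (Smarcc16 in the titles), a core subunit of the BAF nucleosome remodeller, on the same days. The cells of days 4 to 7 in both arms had been transduced on day 2 and selected with puromycin on day 3, whereas the label of the day 0 library names no hairpin. Each condition and day had 1 library, so no difference between libraries has a replicate check, and the differentiation was undirected, so each value averages over the cell types present. Expression was not analysed here, which leaves cell type markers and the extent of the knockdown unchecked. Library and condition cannot be told apart. Values along the Nons or the knockdown course are given in the order of days 4, 5, 6 and 7.

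Imprinted genes are expressed mainly from a single parental allele, and in most domains that choice is written in the germ line as DNA methylation of a CpG-rich control region, the germline differentially methylated region (DMR). After fertilization the zinc-finger protein ZFP57 binds the methylated copy at a short hexamer and keeps the mark, while at the H19 and Igf2 domain the insulator protein CTCF binds the unmethylated maternal copy. The deposited values merge both alleles, so each is an average over both copies and does not show from which parent an open fragment came. Whether a given member has an active and a silent copy in these cells was not examined.

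The control regions carry recognisable sequence. The ZFP57 hexamer TGCCGC, counted on both strands, occurred in 45.5% of the 33 imprinted start windows and in 33.7% of 29526 other autosomal start windows, whose median length was 2439 bp against 2121 bp. The members' windows were CpG-rich more often, with 63.6% against 33.2% at a CpG observed/expected ratio of 0.4 or more. Within that CpG-rich class the shares with a hexamer were 61.9% and 60.1%. The median number per kb there was 0.423 in members and 0.422 in other genes, although the means were 0.837 and 0.486. Of the 12 start windows of members listed with a germline DMR at the 5′ end, 6 held a hexamer. The start window of Airn held 7 hexamers, that of Nespas 6, and those of Peg3/Usp29 and Peg13 5 each. The hexamer nearest the 5′ end is shown with 12 bases on either side for the germline DMR genes whose start window has one, read 5′ to 3′ from GRCm38 with the hexamer in capitals. Only that hexamer is in capitals, also where a stretch holds another on either strand, as in those of Nespas and Peg13. A match of this kind describes the letters only.
Peg3 and Usp29, chr7:6730155-6730184, minus strand: tttggggtgcgtTGCCGCgggccaggggcg
Peg10 and Sgce, chr6:4747217-4747246, plus strand: caaagcagtgcaTGCCGCgcccccacccca
Airn, chr17:12741439-12741468, minus strand: ctcccctcgcatTGCCGCgcttcacgcggg
Nespas, chr2:174295885-174295914, plus strand: gagaattaaatcTGCCGCggcacacagcat
Nnat, chr2:157559781-157559810, minus strand: acaaattctacaTGCCGCgtaaccagtgcc
Peg13, chr15:72810040-72810069, minus strand: caccgagcagatTGCCGCattgccgcacct

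Upstream of H19 the letters GGNGGCAG, the core of a CTCF site, were sought on both strands, since CTCF binding there sets the insulator of the domain. The pair of windows directly upstream of the start window held 3 and 4 cores, as listed from the nearer to the farther. Among other genes, 58.99% of autosomal start windows held a core and 8.55% held 3 or more. The 6 cores that lie at least 11 bases from a window's edge are shown with 11 bases on either side and with the core in capitals. In 3 of the 6 the hexamer TGCCGC, without capitals, stands just before the core.
Core 1.302 kb upstream of the H19 5′ end, chr7:142579430-142579459, plus strand: ttcactggtgtGGTGGCAGttggtctctgt
Core 2.17 kb upstream of the H19 5′ end, chr7:142580298-142580327, minus strand: cgatgccgcgtGGTGGCAGtacaatactac
Core 2.62 kb upstream of the H19 5′ end, chr7:142580753-142580782, minus strand: tgctaccgcgcGGTGGCAGcatactcctat
Core 3.65 kb upstream of the H19 5′ end, chr7:142581779-142581808, minus strand: ggttgccgcacGGCGGCAGtgaagtctcgt
Core 3.77 kb upstream of the H19 5′ end, chr7:142581898-142581927, minus strand: aatgccactagGGGGGCAGgacacatgcat
Core 3.895 kb upstream of the H19 5′ end, chr7:142582023-142582052, minus strand: agttgccgcgtGGTGGCAGcaaaatcgatt

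The start windows of imprinted genes were somewhat more open than those of other genes in 8 of 9 libraries. Undifferentiated cells had a median of 17.4% over members, followed by 21.1, 31.3, 16.7 and 7.56% along the Nons course and 15.2, 25.2, 20 and 10.8% along the knockdown course. Other start windows had 13.7% in undifferentiated cells, 17.3, 27.3, 12.9 and 8.05% along Nons and 13.6, 24.1, 14.6 and 8.82% along the knockdown. The difference between the medians, called the relative level, was lowest in the day 7 Nons library (-0.483 points) and highest in the day 6 knockdown (5.39 points), with a median of 3.67 points (SD over 9 libraries 1.83). Nons at day 7, which has the lowest values of all, was the single library below 0. The middle 50% of members overlapped that of other genes in every library.

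**Figure D1:**
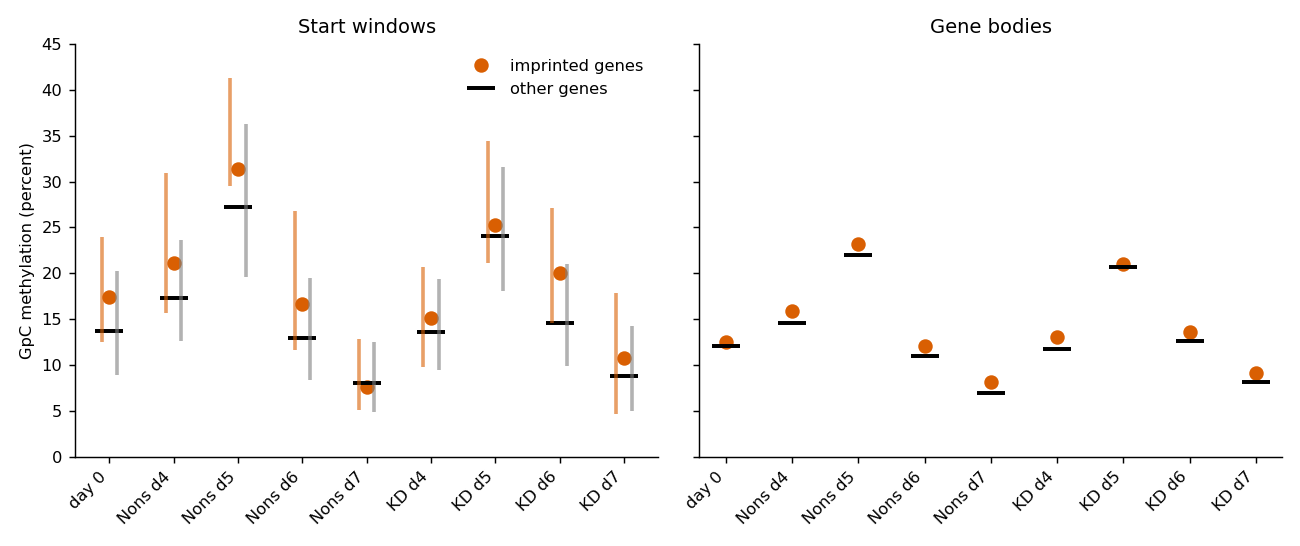
GpC methylation (percent) in the 9 libraries (Nons and knockdown, KD, by day), with orange points for the median over imprinted genes and black dashes for the median over other genes. In the left panel, of start windows, vertical lines span the middle 50% of members (orange) and of other genes (grey), and the members' median is the higher one except in Nons at day 7, and in the right panel, of gene bodies, it is the higher one in all 9 libraries.

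The distance was smaller within classes of CpG content. The 21 CpG-rich members lay 0.702 points above the CpG-rich windows of other genes by the median over 9 libraries (SD 1.27, range -1.59 to 3.01), and the 12 CpG-poor members 0.407 points above CpG-poor windows (SD 2.06, range -0.175 to 4.91). With each member set against its own CpG class the relative level was 0.786 points, and against protein-coding genes alone 1.01 points. As single windows, 4 of 33 members exceeded the median of other genes in all 9 libraries, where 5.29% of other windows did, and 0 of 33 were below it in all 9, where 2.89% of other windows were. The 4 were the windows of Ube3a, Inpp5f, Kcnq1ot1 and Peg13, of which only that of Kcnq1ot1 was CpG-poor. These counts were set against all other start windows and not within a CpG class.

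By distance from the 5′ end, the mean over libraries at imprinted genes was 20.9% in windows centred within 0.5 kb of it and 13.2% and 13.5% at 10 kb upstream and downstream. In other genes it was 18.6%, 13.8% and 13.7% at the same distances. Between 2 and 5 kb upstream imprinted genes had 17.6, 16.4, 15.8 and 14.8% and other genes 14.5, 13.96, 13.9 and 13.8%. Each point of the imprinted profile rests on 10 to 18 windows.

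**Figure D2:**
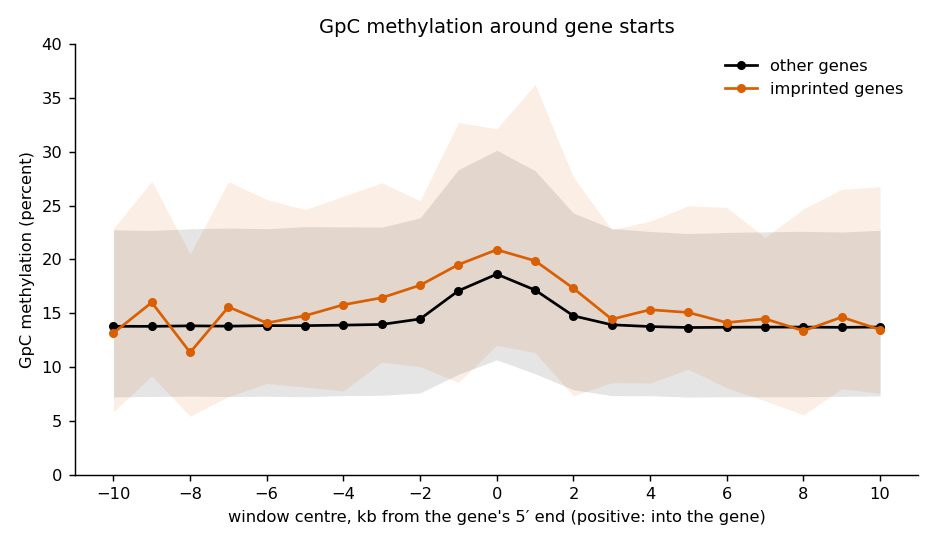
Mean GpC methylation (percent) of windows by the distance of their centre from a gene's 5′ end in bins of 1 kb, for imprinted genes (orange) and other genes (black). Lines are the mean of the 9 library means and bands their lowest to highest value, and both curves have their peak at the 5′ end, at 20.9% and 18.6%.

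Single windows were noisy. The Pearson correlation between libraries over the 33 member windows had a median of 0.294 for 36 pairs (range -0.130 to 0.665), and over other start windows a median of 0.326, a description across windows of the same libraries. A member's order below is therefore given by its median percentile among other start windows over the 9 libraries, where a gene like the middle of the others is near the centre of the scale.

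Among H19, Igf2, Kcnq1ot1, Cdkn1c and Phlda2 on distal chromosome 7 the most open start was that of Kcnq1ot1. This long non-coding RNA silences its neighbours in cis from the paternal allele. Its start window (chromosome 7, 143296339 to 143298296), of which 10.8% is exon and the rest lies upstream, had 17.6% in undifferentiated cells, 34.4, 42.7, 29.1 and 24.6% along the Nons course and 15, 42.6, 28.3 and 16.7% along the knockdown course. It was above the other genes' median in every library and at a median percentile of 89.6. The CpG-densest window of the gene, 1.43 kb inside it, had a lower median of 16.3%. Cdkn1c, a growth inhibitor expressed from the maternal allele, was at percentile 57.8 and Phlda2, a maternally expressed regulator of placental growth, at 61.8.

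H19, the maternally expressed non-coding RNA, and Igf2, the paternally expressed growth factor, lay at percentiles 58.97 and 27.03. The H19 start window (chromosome 7, 142576632 to 142578628), which is 71.7% exon, had 14.7% in undifferentiated cells, 14.6, 38.6, 21.7 and 6.25% along the Nons course and 22.5, 34.4, 16.5 and 9.09% along the knockdown course. The Igf2 window (chromosome 7, 142665742 to 142667580) had 8.57% in undifferentiated cells, 13, 18.4, 15.7 and 7.56% along the Nons course and 11.3, 24.6, 9.38 and 4.55% along the knockdown course, and was above the other genes' median in 2 of 9 libraries. The CpG-densest window of Igf2, 2.17 kb inside it, had a median of 21.3%. In their start windows Igf2 values were lower than H19 values in every library except Nons at day 7.

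The pair of windows upstream of H19, where the control region lies, had mean levels of 20.4 and 23.6% against 19.8% at H19, with overlapping values. The window with the cores at 3.65 to 3.895 kb (chromosome 7, 142581073 to 142583185) had 26.5% in undifferentiated cells, 20, 33.9, 34.6 and 6.93% along the Nons course and 17.6, 27.1, 29.4 and 16.1% along the knockdown course. The window between it and H19 (chromosome 7, 142578650 to 142581048) had a median of 21.9%, with a low of 12.05% and a high of 28.05%. The next window upstream (chromosome 7, 142583188 to 142585705), with 1 core, had a median of 11.6% and the 2 beyond it 8.397 and 6.98%. Placed among other start windows, the pair nearest H19 had median percentiles of 66.3 and 69.4, and the 3 farther windows 19.9, 14.8 and 7.94. In other genes the mean level was also lower away from the start, 18.6% at the 5′ end and 13.8% at 10 kb upstream. No percentile among windows at the same distance was computed.

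The Peg3 domain on proximal chromosome 7 had a single open start for its paternally expressed pair. The window shared by Peg3, a zinc-finger gene, and Usp29 (chromosome 7, 6729530 to 6731596), with 5 hexamers of which 1 is shown above, had 18.2% in undifferentiated cells, 56.5, 29.5, 11.5 and 10% along the Nons course and 32.1, 43.8, 27.1 and 17.4% along the knockdown course. It was above the other genes' median in 8 of 9 libraries, at percentile 83.2, with its value on Nons day 4 far above the rest. Zim1, the maternally expressed neighbour, was at percentile 62.4, with a low of 4.396%, a median of 20% and a high of 41.3%.

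In the Snrpn domain, the region of the Prader-Willi and Angelman syndromes in humans, the annotated 5′ end of Snrpn was near the middle of all genes while windows far inside the gene were among the more open. The start window of the gene record (chromosome 7, 60137767 to 60141750) had 12.5% in undifferentiated cells, 20, 39.4, 11.4 and 2.44% along the Nons course and 12.9, 26.04, 11.6 and 1.52% along the knockdown course, at percentile 43.7. The CpG-densest window of the gene (chromosome 7, 60002545 to 60004848), 137 kb downstream of that end, had 50% in undifferentiated cells, 27.5, 41.96, 28.2 and 33.3% along the Nons course and 32.3, 36.6, 28.7 and 18.5% along the knockdown course. Its neighbour (60004849 to 60007872), which holds the 5′ end of Snurf at 134 kb, had 20% in undifferentiated cells, 36.2, 40.2, 25 and 19.5% along the Nons course and 23.2, 39.6, 34.3 and 0% along the knockdown course. These had the highest mean levels of 46 windows across the locus, 17.4 and 10.8 points above the other genes' start windows, and the third reached 2.14 points.

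Ube3a, the ubiquitin ligase of the same domain whose paternal copy is silenced in neurons, had the highest median percentile of all members, 97.3. Its start window (chromosome 7, 59226501 to 59228917) had 26.7% in undifferentiated cells, 39.5, 53.6, 39.4 and 15% along the Nons course and 20.8, 48.8, 16.8 and 47.4% along the knockdown course. Every value exceeded the other genes' median, though the knockdown at day 6 did so by only 2.24 points. Mkrn3 and Magel2, paternally expressed genes of the domain with a role in ubiquitination, were at percentiles 79.6 and 74.2, and Ndn, encoding necdin, at 37.5. Mkrn3 ranged widely, with a low of 10.3% on Nons day 7 and a high of 58.7% on knockdown day 4, the highest value of any member's start window in any library.

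The Dlk1 and Meg3 domain on chromosome 12 held both higher and lower starts. Meg3, a maternally expressed non-coding RNA, had 29.6% in undifferentiated cells, 33.1, 33.8, 37.3 and 6.74% along the Nons course and 20.3, 38.03, 16.04 and 2.38% along the knockdown course in its start window (chromosome 12, 109539361 to 109541223), at percentile 77.97. Dlk1, a paternally expressed inhibitor of adipocyte differentiation, had 17.4% in undifferentiated cells, 14.9, 49.6, 21.1 and 6.45% along the Nons course and 16, 37.5, 32.1 and 6.49% along the knockdown course (chromosome 12, 109452821 to 109454643, percentile 65.5). The Dlk1 values were close to the other genes' median at day 0 and well above it in Nons at day 5.

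The non-coding RNAs downstream of Meg3 and the retrotransposon-like gene Rtl1 had low values. Rian, host of small nucleolar RNAs, had 9.38% in undifferentiated cells, 9.49, 20.8, 7.69 and 1.25% along the Nons course and 17.5, 21.1, 21.9 and 8.33% along the knockdown course (chromosome 12, 109603002 to 109605246, percentile 29.1). Mirg, a microRNA host gene, had 6.72% in undifferentiated cells, 16.5, 10.5, 20 and 3.704% along the Nons course and 9.52, 16.7, 8.79 and 9.84% along the knockdown course (chromosome 12, 109728700 to 109730549). With a percentile of 19.8 Mirg was the lowest member, followed by Igf2, Rian and Rtl1 (percentile 30.3), and none of these 4 differed from its neighbours in the order by more than its own spread over libraries.

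On chromosome 6 the shared start of Peg10, a domesticated retrotransposon gene needed for the placenta, and Sgce, encoding a sarcoglycan, exceeded most other starts. It had 28.4% in undifferentiated cells, 18.5, 24.2, 22.7 and 12.8% along the Nons course and 20, 24.1, 28.9 and 16.05% along the knockdown course, at percentile 77.2 and above the other genes' median in 8 of 9 libraries. Mest, a paternally expressed hydrolase gene, resembled Snrpn. Its record begins at an upstream start (chromosome 6, 30723323 to 30725814) with 12% in undifferentiated cells, 16.7, 16.3, 21.4 and 7.37% along the Nons course and 7.14, 12.9, 21.6 and 19.4% along the knockdown course (percentile 44.9). The window 14.9 kb farther along (30737554 to 30739287), the CpG-densest of the gene and a start of 3 transcripts, had 35.1% in undifferentiated cells, 32.1, 32.9, 15.9 and 6% along the Nons course and 23.1, 37.7, 33.3 and 30.8% along the knockdown course. It had the highest mean level of 15 windows, 11.8 points above other start windows, and the next highest window adjoined it. Copg2, the neighbouring gene, was at percentile 84.2.

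**Figure D3:**
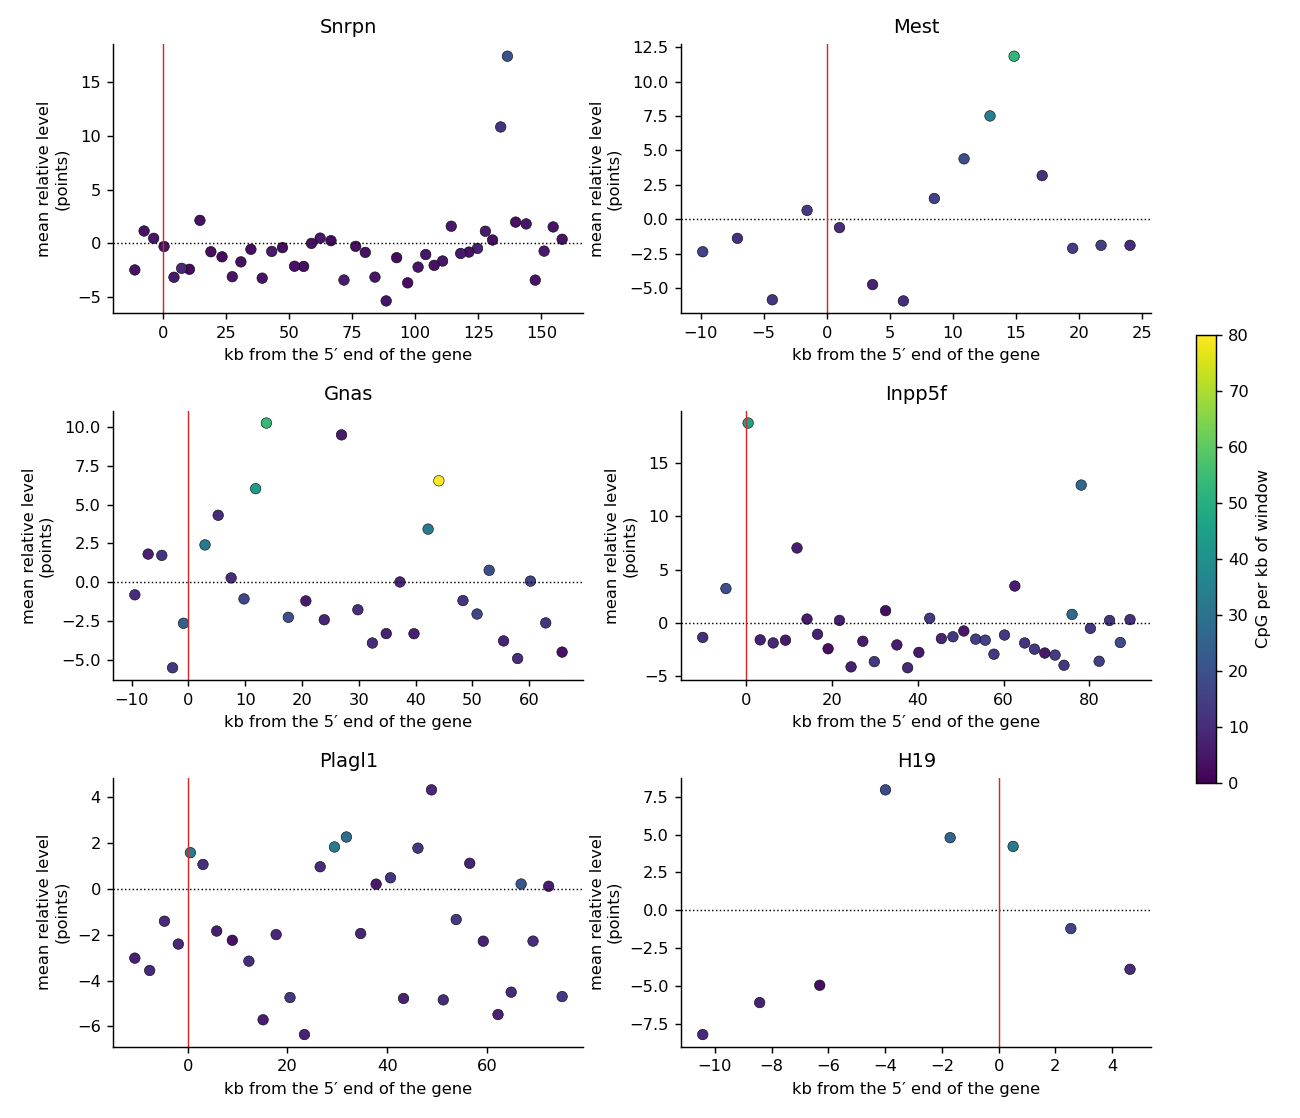
Mean relative level over the 9 libraries (points, each window minus the median of other genes' start windows in the same library) for windows along 6 loci by kb from the gene's 5′ end (red line), coloured by CpG per kb. In Snrpn and Mest the highest window is the CpG-densest one inside the gene, 137 and 14.9 kb from the 5′ end, and at H19 it lies 3.99 kb upstream.

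At the Igf2r locus on chromosome 17 the paternally expressed antisense RNA Airn, which silences Igf2r in cis, starts in an intron of Igf2r. The Airn window (chromosome 17, 12740601 to 12742612) had 24.6% in undifferentiated cells, 21.1, 43.6, 16.7 and 16.8% along the Nons course and 25.4, 33.3, 29.8 and 3.704% along the knockdown course, at percentile 84.9, with its single value below the other genes' median in the knockdown at day 7. Igf2r, the maternally expressed receptor that clears Igf2, had 20% in undifferentiated cells, 30.2, 40.4, 11.6 and 5.41% along the Nons course and 7.14, 19.05, 14.3 and 17.9% along the knockdown course in its start window (chromosome 17, 12768297 to 12770482), at percentile 48.3. The Airn window had the highest mean level of 50 windows across Igf2r and the Igf2r start the next highest, 8.31 and 2.84 points above other start windows.

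Gnas, encoding the stimulatory G protein alpha subunit, has several promoters of opposite imprint on chromosome 2. The first, at the 5′ end of the record and used by the maternally expressed Nesp transcript (chromosome 2, 174282375 to 174284531), had 5.88% in undifferentiated cells, 28, 18.6, 10.4 and 4.41% along the Nons course and 15.96, 20, 13.2 and 0% along the knockdown course, at percentile 32.97. Nespas, the antisense RNA that starts at the germline DMR (chromosome 2, 174295338 to 174296980), had 24.4% in undifferentiated cells, 19.2, 42.9, 20.9 and 5.06% along the Nons course and 18.4, 27.1, 20 and 16.7% along the knockdown course, at percentile 72.1. The window beside it at 13.7 kb, where 7 Gnas transcripts start (174297013 to 174299098), had the highest mean level of 30, with 27.5% in undifferentiated cells, 34.2, 26.9, 7.5 and 23.5% along the Nons course and 17.1, 35.1, 32.4 and 28.6% along the knockdown course. The next highest, 26.97 kb along, is poor in CpG. The CpG-densest window of the locus, 44.1 kb along (174327745 to 174329121), was listed at 0 in Nons at day 7 and reached 42.1% in the knockdown at day 6.

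The remaining genes listed for a germline DMR stand alone. That list was drawn up by a gene's own 5′ end from textbook knowledge, and members outside it, such as H19, can have a control region elsewhere. Peg13, a non-coding RNA on chromosome 15, had 25.97% in undifferentiated cells, 25.2, 29.9, 32.1 and 11.1% along the Nons course and 20.6, 34.8, 40.5 and 10.8% along the knockdown course (chromosome 15, 72808964 to 72810498, percentile 79.1), above the other genes' median in every library. Nnat, encoding neuronatin, had 17.3% in undifferentiated cells, 32.3, 37.96, 13.8 and 11.1% along the Nons course and 22.8, 21.4, 21.1 and 0% along the knockdown course (chromosome 2, 157558161 to 157560089, percentile 69.1). Zrsr1, a splicing factor gene copied by retrotransposition, had 18.99% in undifferentiated cells, 15.7, 31.3, 11.7 and 14.5% along the Nons course and 13.8, 33.8, 21.98 and 12.5% along the knockdown course (chromosome 11, 22970790 to 22972438, percentile 68.3). Unlike these, Plagl1, a zinc-finger growth regulator, was near the middle, with 20.3% in undifferentiated cells, 13.95, 30.2, 12.2 and 4.59% along the Nons course and 9.82, 31.9, 11.6 and 20% along the knockdown course (chromosome 10, 13059982 to 13062102, percentile 46.6). Its densest internal window, at 29.4 kb where 21 of its transcripts start, had a median of 12.5%. Impact, a regulator of translation, had 12.5% in undifferentiated cells, 25.5, 36.05, 13.8 and 6.78% along the Nons course and 11.8, 31.3, 27.1 and 4.55% along the knockdown course at its 5′ end (chromosome 18, 12954160 to 12956465, percentile 54.4). The CpG-densest window of Impact, 18.2 kb inside it (12973472 to 12974569), had 10.2% in undifferentiated cells, 27.1, 50.6, 81.2 and 13.1% along the Nons course and 44.2, 32.98, 46.2 and 34.5% along the knockdown course, the 81.2% being far from its other values in a short window of 1098 bp.

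Of the 4 other singletons, Inpp5f, a phosphatase gene with an imprinted internal transcript, had the next highest percentile after Ube3a, 92.8. Its start window (chromosome 7, 128610720 to 128612883) had 15.4% in undifferentiated cells, 36.5, 46.9, 29.4 and 44.1% along the Nons course and 28.4, 41.5, 32.5 and 34.8% along the knockdown course, above the other genes' median in every library. The window at 78.1 kb, at an internal start of 2 transcripts (128688275 to 128690576), had 28.05% in undifferentiated cells, 34.1, 37.1, 19.2 and 9.92% along the Nons course and 33.3, 38.8, 32.1 and 24.2% along the knockdown course and the next highest mean level of 39. Zdbf2, a paternally expressed gene that affects feeding in mice, was at percentile 89.1, Rasgrf1, an exchange factor for Ras, at 58.04, and Grb10, an adaptor that limits growth signalling, at 49.9. Rasgrf1 (chromosome 9, 89909842 to 89911836) had 12.5% in undifferentiated cells, 16.7, 29.9, 37.8 and 20% along the Nons course and 0, 20.2, 17.5 and 20% along the knockdown course. The highest places, Ube3a, Inpp5f, Kcnq1ot1 and Zdbf2, lay within each other's spread, with SDs of relative level over libraries from 6.3 to 11.9 points.

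**Figure D4:**
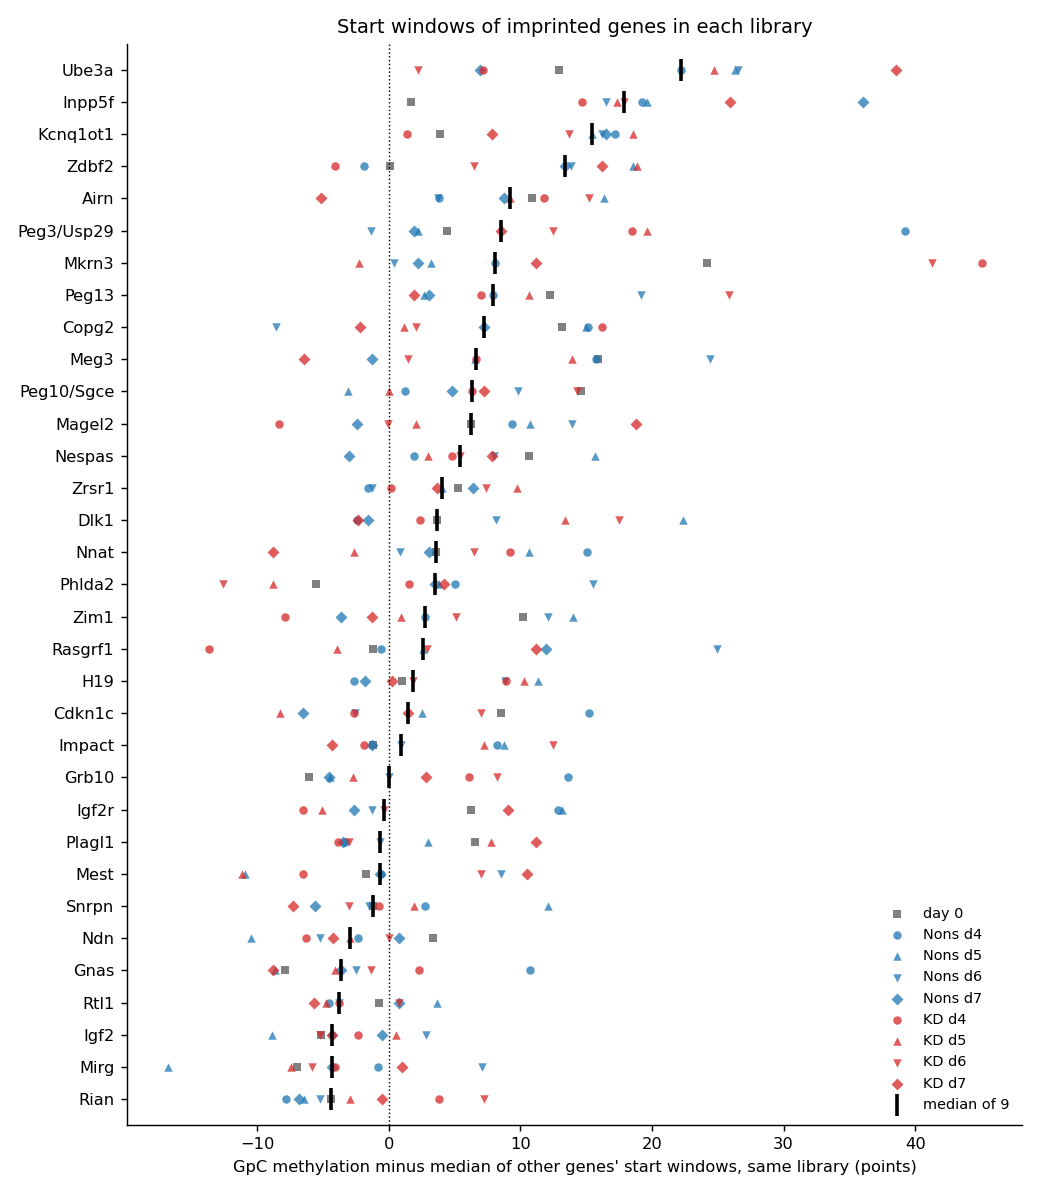
GpC methylation of each imprinted start window minus the median of other genes' start windows in the same library (points), with 1 row per window, 1 symbol per library and a black bar at the median of 9. Rows are ordered by that median, from Rian at -4.35 to Ube3a at 22.2 points, and most rows have libraries on both sides of 0.

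Because the record's 5′ end lies away from the CpG-dense control region in several genes, each gene was also represented by its CpG-densest window within the gene and 5 kb on either side, a choice made after the values were seen. In 19 of 35 members this was not the start window, among them 9 of the 14 germline DMR genes. Over the 32 distinct windows the relative level against the CpG-densest windows of 26183 other loci was 6.27 points (SD 2.396), positive in all 9 libraries. It was 7.37 points (SD 3.16, range 2.41 to 12.9) for the genes listed for a germline DMR. For the other members it was 1.82 (SD 3.39, range -1.30 to 9.15), so the ranges over libraries overlapped. These sets were not matched for CpG density. The list goes by a gene's own 5′ end, so other members can have a control region elsewhere. The window taken for Airn is the Igf2r start, which is thus counted in both sets. The members' windows were also denser, with a median of 41.4 CpG per kb against 20.9. Against the 13696 windows with at least 20 CpG per kb, whose median density was 36.7, the relative level was 2.72 points (SD 1.67, positive in 8 of 9 libraries). As single windows, 3 of 32 members were above the median of the 26183 in all 9 libraries, where 5.08% of those were. They were the windows of Snrpn, Peg13 and Inpp5f. This share was not matched for CpG density. In genes with at least 10 windows the CpG-densest one also had the highest mean level in 10 of 25 members and in 46.3% of other genes.

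Gene bodies of imprinted genes were slightly more open than other bodies in all 9 libraries. Undifferentiated cells had a median of 12.5% over 35 genes, with 15.9, 23.2, 12.02 and 8.09% along the Nons course and 13.1, 21.03, 13.5 and 9.07% along the knockdown course. The 29649 other genes had 12.1% in undifferentiated cells, 14.5, 22, 11 and 6.99% along Nons and 11.8, 20.7, 12.6 and 8.09% along the knockdown. The relative level lay between 0.322 and 1.37 points, with a median of 1.03 points (SD 0.373). Of the members, 7 of 35 were above the median of other genes in all 9 libraries, compared with 4.17% of other genes, and 1 of 35, Rasgrf1, was below it in all 9, compared with 2.62%. The 7 were Peg3, Usp29, Snrpn, Ndn, Sgce, Mest and Gnas. Only windows with the 5′ end of a gene record were left out, so starts of further transcripts inside a gene could count as body. Bodies were not compared within classes of CpG content. The shares above were not matched for the number of windows in a body, such as 79 in Usp29 and 2 in Ndn.

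The Peg3 body, 11 windows, had 17.03% in undifferentiated cells, 17.7, 25.4, 17.01 and 9.56% along the Nons course and 16.5, 24.5, 16.1 and 11.7% along the knockdown course. It stayed between the 78.4 and 93.3 percentiles of other bodies. The Snrpn body, 41 windows with the internal control region among them, had 13.1% in undifferentiated cells, 15.04, 22.9, 13.5 and 7.82% along the Nons course and 13.1, 23.6, 16.02 and 9.41% along the knockdown course. Ndn, with a start below the middle, had a body of 2 windows at a median percentile of 93.6, the highest of the list. Magel2 and Zrsr1, with 2 body windows each, followed closely, both at 93.5. Of the 2 Ndn windows, 1 is the CpG-densest of the gene, with 29.4 CpG per kb. It adjoins the start window, which has 4.01 CpG per kb. The lowest were Peg13 (percentile 15.2, 3 windows), whose start was among the most open, Rasgrf1 (25.01, 47 windows) and Igf2r (26.3, 42 windows).

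During normal differentiation imprinted starts had their high and low days together with other genes. In Nons 30 of 33 windows were higher at day 5 than at day 0, compared with 86.2% of other windows, and 33 of 33 were lower at day 7 than at day 5, compared with 96.6%. The median change from day 0 to day 5 was 17.4 points in members and 12.3 in other genes, a distance of 5.12 points that became -0.14 as a log2 ratio of medians. From day 5 to day 7 the medians of the change were -22.1 and -18.1 points. The 3 windows not higher at day 5 were those of Ndn, Mkrn3 and Peg10/Sgce, at -0.259, -7.42 and -4.16 points. In bodies 34 of 35 genes were higher at day 5 than at day 0, compared with 94.9% of other genes, and 35 of 35 were lower at day 7, compared with 99.1%.

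The knockdown was compared with Nons on each day. Over imprinted start windows the median of knockdown minus Nons was -7.19, -4.74, 2.79 and 1.51 points in day order, and over other start windows -3.61, -2.77, 1.53 and 0.748 points. At day 4, 27 of 33 members were lower in the knockdown, compared with 67.3% of other windows. At days 5, 6 and 7 the counts were 23, 13 and 14 of 33, compared with 59.5%, 43.2% and 45.7%. The relative difference, members minus other genes, was -3.58, -1.97, 1.26 and 0.757 points on the 4 days, with a mean of -0.883 (SD over days 2.29). It changed sign between days, and without day 4 its mean was 0.0149 points.

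Few members lay on the same side of Nons throughout. The knockdown was lower on all 4 days in 1 of 33 windows, compared with 7.98% of other windows, and higher on all 4 days in 1 of 33, compared with 4.2%. Kcnq1ot1 was the lower one, with differences of -19.4, -0.112, -0.824 and -7.92 points on days 4 to 7, near 0 at days 5 and 6. Rian was the higher one, with 7.97, 0.321, 14.2 and 7.08 points and a mean of 7.39 points (SD over days 5.67). Its day 5 values, 20.8% in Nons and 21.1% in the knockdown, hardly differed.

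Relative to other genes, 2 of 33 windows were below 0 on all 4 days, compared with 6.31% of other windows, and 2 of 33 above 0, compared with 6.48%. Snrpn had relative differences of -3.48, -10.6, -1.34 and -1.67 points and Rasgrf1 of -13.1, -6.97, -21.8 and -0.748 points, the last with equal values in both arms. The Peg10/Sgce window had 5.09, 2.68, 4.63 and 2.48 points and Rian 11.6, 3.09, 12.7 and 6.34 points. These shares are near those of other genes.

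**Figure D5:**
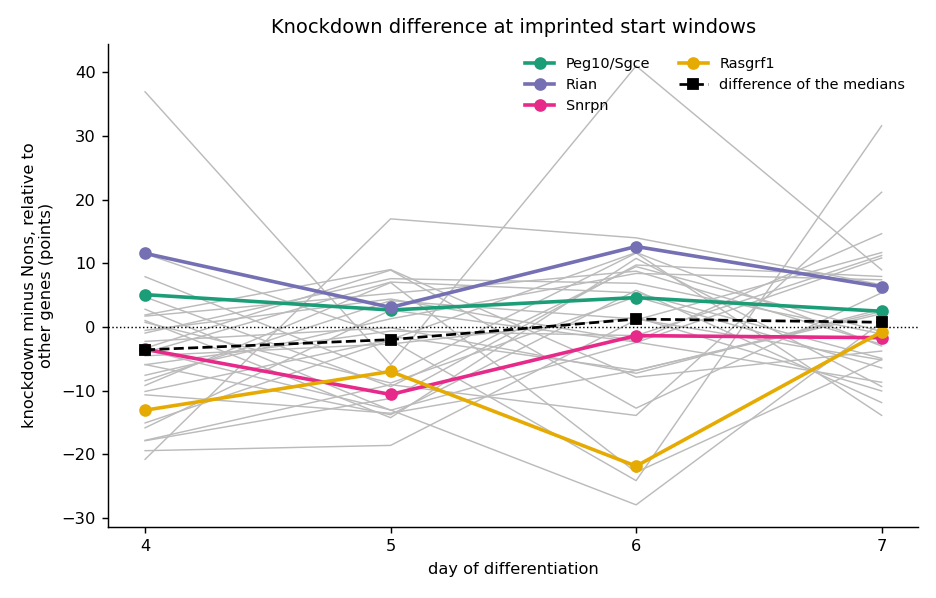
Knockdown minus Nons at each imprinted start window minus the median of the same difference over other genes (points) by day of differentiation. Grey lines are single windows, coloured lines the 4 windows on 1 side of 0 on all days, and black squares the difference of the medians, which is -3.58 points at day 4 and 1.26 at day 6.

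A mean effect over the 4 days was tested by limma with day as a block, a fit in which days stand in for replicates although they are a time course. No start window of an imprinted gene passed an adjusted p of 0.05, and 0.0% of all 829493 windows did. At an unadjusted p under 0.05 there were 3 of 33, compared with 4.23% of all windows. They were Mkrn3 (mean difference 19.2 points, SD over days 23.2), Rasgrf1 (-11.7, SD 8.94) and Phlda2 (-11.97, SD 11.9), each with an adjusted p of 0.995 in limma. Mkrn3 was higher in the knockdown on 3 of 4 days, with differences of 33.3, -8.65, 42.5 and 9.74 points, and Phlda2 lower on 3 of 4.

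In gene bodies the median of knockdown minus Nons was -2.79, -1.83, 1.01 and 0.948 points on days 4 to 7 in imprinted genes and -2.72, -1.32, 1.57 and 1.08 in other genes. The relative difference was -0.0697, -0.506, -0.563 and -0.133 points, below 0 on 4 of 4 days, with a mean of -0.318 (SD 0.253). With start windows counted among the windows of the gene the mean was 0.0333 points. The knockdown was lower on all 4 days in 1 of 35 bodies, compared with 5.14% of other genes, and higher on all 4 in 0 of 35, compared with 2.93%. The lower one was Phlda2, whose body is a single window, with -5.27, -32.02, -16.4 and -1.58 points. Relative to other genes, 4 of 35 were below 0 on all days, compared with 6.35%, namely Phlda2, Usp29, Rian and Airn, and 1 of 35, Snrpn, was above 0, compared with 6.48%. In limma no body passed an adjusted p of 0.05 (0.0% of 30619 genes), and 1 of 35, Phlda2, had an unadjusted p under 0.05, compared with 3.92% of all genes.

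Members were split by the allele described as expressed, for maternal genes in at least some tissues, which was not examined in these cells. The 21 start windows of paternally expressed genes had a median relative level of 3.67 points (SD 2.31), above 0 in 9 of 9 libraries. The 12 of maternally expressed genes had 3.07 points (SD 4.48), above 0 in 7. The allele is that of the gene, not of the window. The paternal set holds the distant record starts of Snrpn and Mest and that of Inpp5f, whose imprinted transcript is internal. Start windows of the genes listed for a germline DMR had 4.86 points (SD 2.56, 9 of 9 above 0) and the others 1.66 points (SD 2.93, 7 of 9). The listed ones include the distant record starts of Snrpn, Mest, Plagl1 and Impact. The others include H19, whose control region lies upstream. This split therefore does not part genes with a germline DMR from genes without. In each split the ranges over libraries overlapped. Bodies of the 14 members on chromosome 7 had 1.91 points and those of the 21 others 0.679. The 13 start windows on chromosome 7 had 3.92 points and the 20 on other chromosomes 2.34. Against other genes of their own chromosome the whole list had 3.33 points.

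A list of 28 further imprinted genes outside the 35 had a median relative level of 3.32 points (SD 2.47), above 0 in 8 of 9 libraries. It was not compared within classes of CpG content, and it holds the Snurf window described above inside Snrpn. Of the 28 genes, Sfmbt2, Mcts2 and Ppp1r9a were above the other genes' median in all 9 libraries (3 of 28, compared with 5.29% of other windows). Slc22a2 was below it in all 9 (1 of 28, compared with 2.89%). None passed an adjusted p of 0.05 for the knockdown in limma and 3 of 28 had an unadjusted p under 0.05 where 4.23% of all windows did, among them Slc22a3, an organic cation transporter gene of the Igf2r domain, with a mean of -14.1 points. The genes that keep imprints, including Zfp57, Trim28, Dnmt1 and Uhrf1, had start windows in 8 of 9 cases, at a median relative level of 4.88 points (SD 2.27). These genes, too, were not compared within classes of CpG content, and neither list was set against protein-coding genes alone. Zfp57 was at percentile 82.9 and Trim28, the corepressor that ZFP57 recruits, at 31.6, with mean knockdown differences of 0.452 and 5.599 points. In limma, 0 of the 8 passed an adjusted p of 0.05 and 0 an unadjusted p of 0.05.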

How the data were processed

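NOMe-seq reads of 9 libraries were trimmed, aligned with bismark to mm10 with FVB and CAST differences masked, and called for GpC methylation by the authors. The deposited values are percent GpC methylation, which the authors computed in Seqmonk over windows of 200 read positions with both alleles merged, and which are not normalized between libraries. Depth per window is unknown, so no interval was computed, and 1.01% of the members' start values were 0. Library medians over autosomal windows ran from 6.41 to 21.2%. Of 833294 windows, 829493 on chromosomes 1 to 19 and X with a value in all libraries were used. Members and lists were chosen with earlier results of these data known, the members as given and the lists from textbook knowledge.

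Groups and days came from the sample titles. Window sequences came from GRCm38 (RefSeq) and genes from GENCODE M21. A gene's body value is the mean of its body windows. Levels and differences were set against the median of the same class in other autosomal genes of the same library, windows of members left out. The knockdown was tested with limma (3.58.1, R 4.3.3) of percent values, with a term for each day, and Benjamini-Hochberg adjustment over all windows or genes. Values in all 9 libraries are given for germline DMR genes, the 3 highest and 3 lowest start windows by median percentile, those with a relative knockdown difference of 1 sign on all days, and H19, Igf2, Meg3, Dlk1, Gnas and Igf2r, and other genes were named beside them after their values were seen. Alternatives covered the window definition, comparison set, scale, normalization, filters and each day left out. Python 3.11.15 was used for all else.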

Additional observations from a re-analysis of the deposited data

Results flagged for a closer look

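The knockdown difference at imprinted start windows had opposite signs on different days. Its median over 33 windows on day 4 was -7.19 points and on day 6 2.79 points, while over other start windows it was -3.61 and 1.53 points, with the same signs. Each day had 1 library in each arm, and whether the days differ was not tested. The medians over all autosomal windows were 13.95% in Nons and 11.1% in the knockdown at day 4, and 10.3% and 11.9% at day 6, and their part in the result was not tested.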

How the results depend on the processing

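The level of imprinted start windows stayed above that of other genes under every alternative run, from 0.786 points against the same CpG class, 1.01 against protein-coding genes and 1.503 with starts of any transcript to 6.27 with the CpG-densest window, which was chosen after seeing the data. The start-site change from day 0 to day 5 of Nons (5.12 points) was 2.24 with starts of any transcript, 1.45 against the same CpG class, 2.22 after quantile normalization, 2.401 with means and 2.96 without chromosome 7, and reversed to -0.14 as a log2 ratio. The mean start-site knockdown difference (-0.883) was 0.506 without chromosome 7 and 0.0475 as a log2 ratio, and from -1.597 to 0.0149 with each day left out. In bodies the level was 1.43 with means, and the change to day 5 (2.298) was 0.967 with start windows included, 0.673 for genes with at least 5 body windows, 1.41 after quantile normalization and 1.41 without chromosome 7. The mean body knockdown difference was 0.0333 with start windows included and from -0.401 to -0.236 with each day left out. No alternative fit in limma called a member at an adjusted p of 0.05, although without day 5 it called 2 of 30619 bodies, and members with an unadjusted p under 0.05 numbered 1 (without day 6) to 7 (without day 7) of 33 start windows, where 4.44 and 4.61% of all windows did, and 0 to 2 of 35 bodies, where 3.83 to 5.65% of all genes did. The cause of these moves was not tested. Every limma fit had a term for each day, which pairs the arms. The depth behind single windows is unknown, and 19 of 200 alternative values of single named members changed sign or moved by more than their SD over days or libraries.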
